A study of Mus musculus with 24 samples.

Results

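The 3 ovaries of mice given ABT263 and collected at 6 months were compared with the 3 ovaries of mice at 3 months, the age at which dosing began. These 6 libraries were chosen by their labels from the 24 whole-ovary libraries of the series, which fall into 8 groups of 3. The question was how far treated ovaries resembled those at the start of dosing. All mice were female C57BL/6J. The 3-month group and the 6-month group without ABT263 belonged to the natural aging series, and the labels name no deletion or transgene. The treated mice received ABT263 by oral gavage in monthly rounds, each with daily dosing followed by rest, from 3 months of age, and their ovaries were taken at 6 months. A vehicle is described for control mice in the study's methods, but the labels do not say whether the natural aging mice received it. Age, the drug, the vehicle and the gavage therefore differ together between the treated and the 3-month mice, and their parts cannot be told apart. Between treated and natural aging mice of 6 months, the drug, the vehicle and the gavage cannot be told apart either. The 3 natural aging mice at 6 months are given beside the comparison as ovaries of the same age, and are called the natural aging mice.

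ABT263, or navitoclax, is a small molecule that blocks BCL-2 and its anti-apoptotic relatives BCL-XL and BCL-W. It is used as a senolytic, a drug meant to let senescent cells die. Senescent cells are in lasting cell cycle arrest and secrete cytokines, proteases and matrix proteins that are together called the senescence-associated secretory phenotype, or SASP. The ovary holds a fixed store of primordial follicles, each with a primary oocyte, which is used up with age, and whole-ovary RNA also comes from granulosa, theca and luteal cells, stroma, vessels and leukocytes. In such bulk samples, fewer cells of a type and less RNA per cell cannot be told apart.

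Library totals were 20029940, 18371745 and 19697122 counts in 3-month mice 1, 2 and 3, and 16361877, 18600936 and 19279896 counts in treated mice 1, 2 and 3. The natural aging mice had 20231834, 19991606 and 19254606 counts. Levels are given as CPM, the share of a library's counts scaled to a common total, normalized by TMM over all 24 libraries, and values listed in threes follow the replicate numbers of the labels. The labels call each library a separate sample but name no animal, so p-values measure the spread between these libraries. The ovarian identity of the libraries was checked with cell type markers. Oocyte genes summed to 996, 1166 and 809 CPM in the 3-month mice and 919, 895 and 782 CPM in the treated mice, and granulosa cell genes to 8500.0, 8523 and 7557 and 8833, 8911 and 7691 CPM. Uchl1 was the most abundant of the oocyte genes. It was at 82.9, 245 and 104 CPM in the 3-month mice and 110, 67.4 and 56.5 in the treated mice. Markers of neighbouring tissue were unequal between single mice. Of the adipocyte markers, the summed level was 190.01, 81.4 and 111 CPM in the 3-month mice and 68.3, 86.4 and 80.6 CPM in the treated mice, with Lipe the most abundant and Ucp1 at 3 counts or fewer in all 9 libraries. Ovgp1, a secreted protein of oviduct epithelium, was at 3.87, 3.89 and 35.3 CPM in the 3-month mice and 2.51, 12.1 and 3.34 in the treated mice. Of its exon bases, 28.7% overlap another gene model on the same strand. Hemoglobin and other erythrocyte genes summed to 200.3, 55.1 and 55.3 and 19.1, 45.2 and 181 CPM.

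No gene differed between treated 6-month ovaries and 3-month ovaries at an adjusted p of 0.05. Of 17279 genes tested with edgeR's quasi-likelihood test, 0 (0%) passed after Benjamini-Hochberg adjustment, and the smallest adjusted p was 0.62. At an unadjusted p under 0.05 stood 953 genes (5.52%), 502 with a higher level in the treated mice (2.91%) and 451 with a lower level (2.61%). DESeq2 called 24 genes (0.139%), 14 higher and 10 lower. The groups did not overlap for 2039 genes (11.8%). The precision of the comparison was enough to bound most differences. Among the 14225 genes with a mean of at least 2 CPM in either group, the 95% confidence interval of the fold change lay within 2-fold for 12744 (89.6%), and its median half-width was 0.352 on the log2 scale. Only 111 of these genes (0.780%) had an estimated difference over 2-fold, 43 higher and 68 lower.

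Natural aging ovaries at 6 months, set against the same 3-month mice, also gave 0 genes (0%) at an adjusted p of 0.05 among 17313, with a smallest adjusted p of 0.24. There, 1576 genes (9.1%) had an unadjusted p under 0.05, 711 higher (4.11%) and 865 lower (5%), 143 (0.826%) were called by DESeq2, and 218 (1.53%) were over 2-fold. The edgeR counts of both comparisons depended on the 3-month mice that they share. Without 3-month mouse 1, 1820 genes had an unadjusted p under 0.05 in treated and 1599 in natural aging ovaries, and 3 genes were called higher and 1 lower in treated ovaries against 0 in natural aging. Without 3-month mouse 2, these counts were 785 and 2030, and 0 genes were called in treated ovaries against 33 higher and 43 lower in natural aging. Treated against natural aging ovaries at 6 months, which is the direct test of the difference between these comparisons, gave 0 of 17277 genes (0%) at an adjusted p of 0.05 and a smallest adjusted p of 0.0929. Without treated mouse 1, edgeR called 99 genes higher and 111 lower in that comparison, and leaving out any one of the other mice gave at most 1 and 2. At an unadjusted p under 0.05 stood 1903 genes (11%), 920 higher in the treated mice (5.32%) and 983 lower (5.69%). DESeq2 called 386 genes (2.23%) in that comparison. The first comparison shares its 3-month mice with the natural aging one and its treated mice with the last, so their values are set side by side only.

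Each mouse was also placed by its mean distance to the 3-month mice, the root mean square difference of log2 CPM over 17875 genes. The treated mice stood at 0.593, 0.569 and 0.586 (0.583 ± 0.0123, SD, n = 3) and the natural aging 6-month mice at 0.615, 0.622 and 0.587 (0.608 ± 0.0187, SD, n = 3). The 3-month mice lay at 0.626, 0.627 and 0.598 from one another (0.617 ± 0.0160, SD, n = 3), and the means of both 6-month groups were below that value. Such a distance also holds the spread within each group, and the 3-month mice were the most spread of the 3 groups. A mean below that value therefore does not show that a group's average level was that of 3 months. Treated and natural aging mice at 6 months overlapped, and their difference of -0.0254 had a two-sided p of 0.2 by exact permutation over the 20 splits. The smallest p that these splits can give is 0.1. Without 3-month mouse 1 the difference was 0.0116 (exact permutation p = 0.6), so its direction rested on that mouse. The nearest library to 3-month mouse 1 was treated mouse 3 at 0.508, and the nearest to 3-month mouse 3 was treated mouse 2 at 0.553, while 3-month mouse 2 lay nearest to natural aging 6-month mouse 3 at 0.543. Among themselves, the 3 treated mice were at a mean distance of 0.542 and the natural aging 6-month mice at 0.530.

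**Figure D1:**
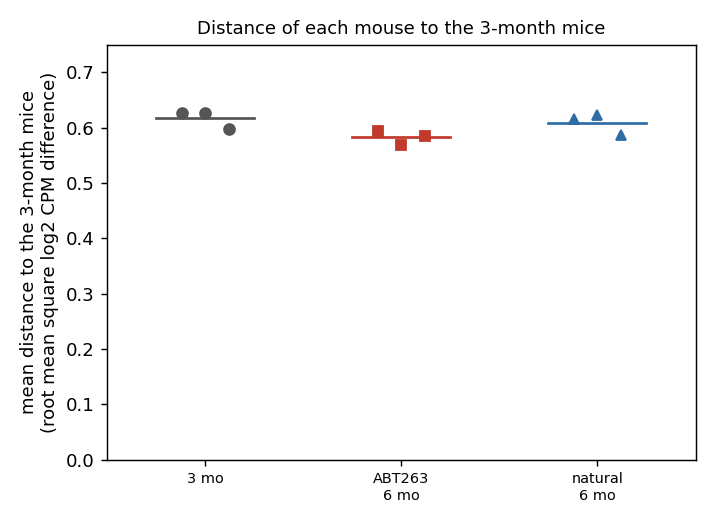
Mean distance of each mouse to the 3-month mice (y axis, root mean square difference of log2 CPM over 17875 genes), with 1 point a mouse and a bar for the mean of 3. The treated mice lie between 0.569 and 0.593, within reach of the natural aging 6-month mice at 0.587 to 0.622 and below the 3-month mice among themselves at 0.598 to 0.627. Each distance also holds the spread within the groups.

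Gene lists of cell types and pathways were described next. They were written from general knowledge, but with earlier results of these data known. For each list, the number of genes at an unadjusted p under 0.05 is a description and reads against the shares given above. The median log2 fold change over all genes tested was -0.01 in treated against 3-month ovaries. With edgeR's default expression filter and all mice, 0 genes of any list passed an adjusted p of 0.05 in these 3 comparisons. DESeq2 called Jchain, Igha, Postn, Actg2 and Dpt among the list members in treated against 3-month ovaries. Among lists with at least 10 genes tested, the median farthest from 0 in natural aging at 6 months was that of oocyte genes at -0.74, against -0.18 in the treated mice. Among the shorter lists, the adipocyte markers had a median of -0.81 in natural aging and -1.03 in treated ovaries, where all 6 tested were lower and 0 had an unadjusted p under 0.05. The latter median was -0.16 without 3-month mouse 1, in which these markers were highest, and -1.99 without 3-month mouse 3.

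**Figure D2:**
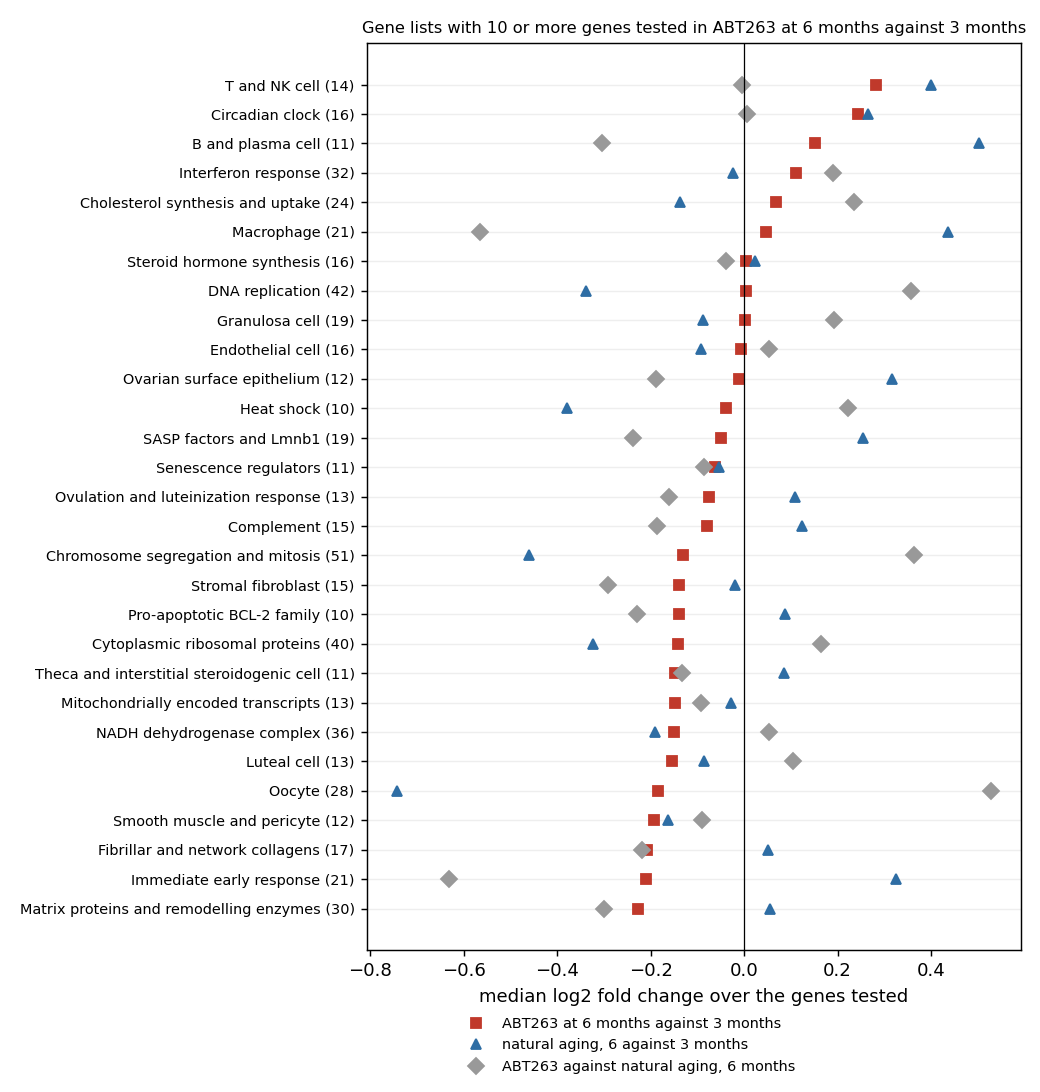
Median log2 fold change (x axis) of the 29 gene lists with at least 10 genes tested, with the number tested in brackets. Squares are treated 6-month against 3-month ovaries, triangles natural aging 6-month against 3-month ovaries, and diamonds treated against natural aging ovaries at 6 months. The squares lie between -0.23 for matrix proteins and 0.28 for T and NK cell genes, while the triangles run from -0.74 to 0.50.

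Oocyte genes in the treated ovaries were closer to their 3-month level than in natural aging ovaries of the same age. Their list level, the mean log2 CPM of the list relative to the 3-month mean, was 0.12, 0.11 and -0.23 in the 3-month mice, -0.12, -0.15 and -0.32 in the treated mice and -0.59, -0.70 and -0.67 in the natural aging 6-month mice. The treated mice overlapped the 3-month mice, and both lay above all 3 natural aging mice at 6 months. Of 28 genes tested, 27 were lower in treated than in 3-month ovaries, but 3 of them, Lhx8, Zp3 and Uchl1, had an unadjusted p under 0.05, with a median of -0.18 that was -0.31 without 3-month mouse 3. In natural aging, 24 of 28 had a lower level at that p, and the direct comparison of treated with natural aging ovaries had 22 of 28 higher, with a median of 0.53.

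Gdf9 (ENSMUSG00000018238, chromosome 11 from 53431023 to 53437904, build GRCm38), the growth factor that oocytes send to granulosa cells, was at 101, 103 and 79 CPM in the 3-month mice, 84.4, 92.7 and 77.2 in the treated mice and 55.6, 57 and 53.5 in the natural aging mice. Treated and 3-month mice overlapped, and every natural aging mouse was lower. The log2 fold change was -0.18 (SE 0.13, 95% interval -0.47 to 0.12, edgeR adjusted p = 0.88) in treated against 3-month ovaries. With 1 mouse left out it ran from -0.29 to -0.10. It was -0.78 (interval -1.05 to -0.50) in natural aging, and 0.61 (interval 0.40 to 0.82, edgeR adjusted p = 0.0929) between the treated and natural aging ovaries. Zp3 (ENSMUSG00000004948, chromosome 5 from 135980099 to 135988624), which encodes the sperm receptor of the zona pellucida, was at 52.5, 65.8 and 52 CPM in the 3-month mice, 49.2, 42.1 and 46.1 in the treated mice and 31.4, 29.9 and 35 in the natural aging mice. Here the treated mice did lie below all 3-month mice, between them and the natural aging mice, with log2 fold changes of -0.33 against 3 months (-0.20 without 3-month mouse 2) and 0.51 against natural aging. Lhx8, a transcription factor of primordial and growing oocytes, was at 5.13, 4.74 and 5.21 CPM in the 3-month mice, 3.95, 3.16 and 3.04 in the treated mice and 2.81, 3.07 and 2.17 in the natural aging mice, with no overlap between treated and 3-month mice and a log2 fold change of -0.60 (edgeR adjusted p = 0.88). Uchl1, an ubiquitin hydrolase abundant in oocytes and in neurons, differed from the other members, since its level of 245 CPM in 3-month mouse 2 stood far above the 82.9 and 104 CPM of the other two, and 18.1% of its exon bases overlap an antisense gene. Amh, the hormone of growing follicles made by granulosa cells, was at 381, 275 and 227 CPM in the 3-month mice, 304, 326 and 201 in the treated mice and 168, 201 and 247 in the natural aging mice.

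Genes of dividing cells had group means nearer to 3 months in treated than in natural aging ovaries, but single mice overlapped. For DNA replication the list level was 0.20, -0.21 and 0.01 in the 3-month mice, 0.12, 0.14 and -0.17 in the treated mice and -0.44, -0.33 and -0.21 in the natural aging mice. For mitosis it was 0.23, -0.19 and -0.04, 0.07, 0.01 and -0.35 and -0.58, -0.50 and -0.19 in the same order. Treated mouse 3 was thus below natural aging mouse 3 for mitosis, and 3-month mouse 2 was level with natural aging mouse 3 for replication. Of 42 DNA replication genes, 21 were higher and 21 lower in treated than in 3-month ovaries, 0 had an unadjusted p under 0.05, and the 95% interval lay within 2-fold for 41. In natural aging, 41 of 42 were lower with a median of -0.34, and 18 had an unadjusted p under 0.05. In treated against natural aging ovaries, all 42 were higher, 18 of them at an unadjusted p under 0.05, with a median of 0.36. Genes of chromosome segregation and mitosis had a median of -0.13 in treated against 3-month ovaries, -0.46 in natural aging and 0.36 between the 6-month groups, with 1, 35 and 21 of 51 genes at an unadjusted p under 0.05. The first of these medians was -0.01 without 3-month mouse 1 and 0.00 without treated mouse 3. Mki67, the proliferation marker Ki-67, was at 129, 79.2 and 95.4 CPM in the 3-month mice, 109, 113 and 81.5 in the treated mice and 69.999, 65.2 and 84.5 in the natural aging mice. All 3 groups overlapped in part, and the log2 fold change against 3 months was -0.03 (interval -0.46 to 0.41) with treatment and -0.47 (interval -0.88 to -0.06) in natural aging. The member with the smallest p in the treated mice, Birc5, which encodes survivin, was at 39.1, 28.6 and 35.4 CPM in the 3-month mice and 28.4, 29.2 and 24.3 in the treated mice (log2 fold change -0.36).

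Ribosomal protein genes had small negative differences from 3 months in treated ovaries, with overlap between the groups. All 40 tested had a negative log2 fold change in treated ovaries, between -0.29 and -0.03, with a median of -0.14, and 13 of 40 did not overlap between the groups, beside 11.8% of all genes. Only 2, Rplp2 and Rps2, had an unadjusted p under 0.05, beside 2.61% of all genes in that direction, and the 95% interval of every one lay within 2-fold. In natural aging the median was -0.32 with 33 of 40 at an unadjusted p under 0.05, and the treated ovaries had the higher level of all 40 in the direct comparison (median 0.16, 13 at that p). The list level was 0.01, -0.04 and 0.02 in the 3-month mice, -0.16, -0.21 and -0.01 in the treated mice and -0.32, -0.44 and -0.27 in natural aging. Treated mouse 3 thus stood at the 3-month level, and the other treated mice stood between the 3-month and natural aging mice. Subunits of the mitochondrial NADH dehydrogenase had a median of -0.15 in treated ovaries, with 1 of 36 lower at an unadjusted p under 0.05, and of -0.19 in natural aging, with 11 of 36. Their list level was 0.06, -0.10 and 0.04 in the 3-month mice and -0.28, -0.25 and 0.12 in the treated mice, so that treated mice 1 and 2 were below and treated mouse 3 above every 3-month mouse. Without treated mouse 3 the median was -0.27, without treated mouse 1 it was -0.08 and without treated mouse 2 it was -0.09.

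**Figure D3:**
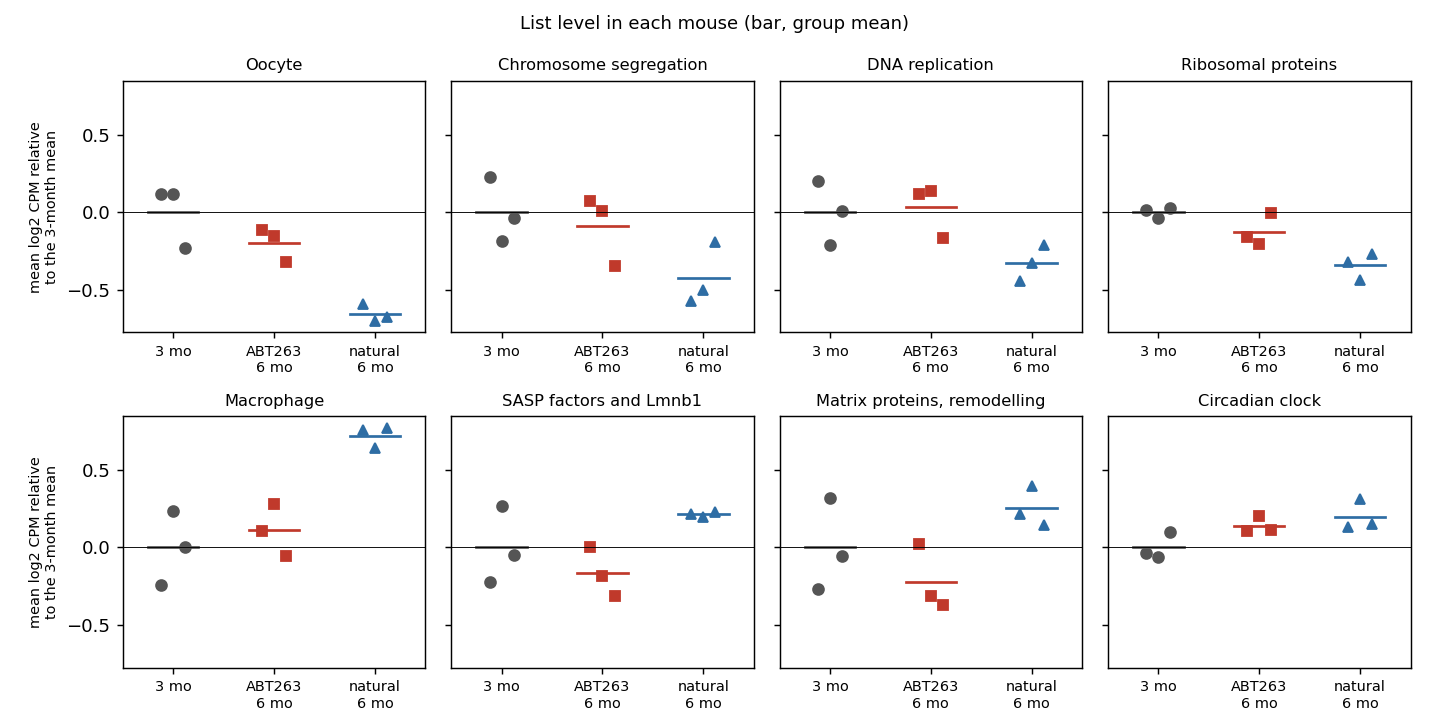
Level of 8 gene lists in each mouse (y axis, mean log2 CPM relative to the 3-month mean), with a bar for the mean of 3 mice in each of the 3 groups. Oocyte, mitosis, replication and ribosomal genes have their lowest group means and macrophage genes their highest in the natural aging 6-month mice, with means of -0.66 and 0.72 for oocyte and macrophage genes, against -0.20 and 0.11 in the treated mice.

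As a list, macrophage markers in treated ovaries overlapped their 3-month level. The list level was -0.24, 0.24 and 0.00 in the 3-month mice, 0.10, 0.28 and -0.05 in the treated mice and 0.76, 0.64 and 0.77 in the natural aging 6-month mice, so that the first 2 groups overlapped and the third stood apart from both. Of 21 genes tested, 12 were higher and 9 lower with treatment (median 0.05, and -0.04 to 0.15 with each mouse left out in turn), and 1, Cd163, had an unadjusted p under 0.05. Between treated and 3-month mice, 3 of 21 did not overlap, Cd163, Csf1r and Cd14, beside 11.8% of all genes. Natural aging had 20 of 21 higher (median 0.44), 13 at that p, and 15 of 21 were lower at that p in treated than in natural aging ovaries. The markers summed to 661, 856 and 829 CPM in the 3-month mice, 766, 866 and 716 CPM in the treated mice and 1318, 1101 and 1373 CPM in natural aging, with Lyz2 the most abundant. Timd4, the remaining marker, was too low for the test.

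Clec7a, the dectin-1 receptor for fungal glucans, was at 11.3, 17.3 and 13.1 CPM in the 3-month mice, 16.8, 20.6 and 14 in the treated mice and 32.4, 29.9 and 44.7 in the natural aging mice. Every natural aging mouse was above every other mouse, while treated and 3-month mice overlapped, with log2 fold changes of 0.28 (interval -0.19 to 0.75) and 1.35 (interval 0.88 to 1.83) against 3 months. The first of these ran from 0.13 to 0.48 with 1 mouse left out. Lyz2, which encodes macrophage lysozyme, was at 157, 159 and 249.9 CPM in the 3-month mice, 171, 187 and 152 in the treated mice and 369, 256 and 382 in the natural aging mice, with the treated mice overlapping the 3-month mice and all natural aging mice above both. Cd5l, a secreted protein of resident macrophages, was at 1.21, 2.13 and 3.37 CPM in the 3-month mice, 4.19, 3.48 and 2.13 in the treated mice and 9.71, 7.39 and 13 in the natural aging mice. Gpnmb, a glycoprotein of lipid-laden phagocytes, was at 15, 44.4 and 46.2 CPM in the 3-month mice, 49.5, 62.6 and 31.3 in the treated mice and 88.1, 118 and 129 in the natural aging mice, where 3-month mouse 1 was low, treated mice 1 and 2 were above all 3-month mice, and all natural aging mice were higher still. Cd163, the scavenger receptor for hemoglobin, went with neither group, at 3.83, 4.42 and 3.32 CPM in the 3-month mice, 6.47, 5.37 and 5.07 in the treated mice and 4.39, 4.11 and 3.29 in the natural aging mice. Its level in the treated mice was above all mice of both other groups, with log2 fold changes of 0.52 against 3 months and 0.51 against natural aging (edgeR adjusted p = 0.88 and 0.41). Csf1r was at 42.9, 48.0 and 53.40 CPM in the 3-month mice, 60.2, 63.4 and 53.45 in the treated mice and 73.0, 58.0 and 65.3 in the natural aging mice. Cd14 was at 5.28, 6.12 and 5.31 CPM in the 3-month mice, 3.17, 4.53 and 4.71 in the treated mice and 6.16, 7.49 and 5.46 in the natural aging mice. Their log2 fold changes against 3 months were 0.27 and -0.45 with treatment.

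Several senescence genes varied widely among the 3-month mice themselves. Of 19 SASP factors and Lmnb1 tested, 6 were higher and 13 lower in treated ovaries, with a median of -0.05 and 13 intervals within 2-fold. Natural aging had 15 of 21 higher (median 0.26), 5 at an unadjusted p under 0.05. In treated against natural aging ovaries, 17 of 21 were lower (median -0.24), 8 at that p. With 1 mouse left out, the median in treated against 3-month ovaries ran from -0.17 to 0.03, the latter without 3-month mouse 2. That mouse had the highest level of Timp1, Ccl2, Ccl3, Cdkn1a, Cdkn2a and Cdkn2b among the 3-month mice. Timp1, an inhibitor of matrix metalloproteinases, was at 33.9, 132 and 49.7 CPM in the 3-month mice, 85.1, 26.2 and 29.2 in the treated mice and 95.2, 368 and 143 in the natural aging mice. Ccl2, a chemokine for monocytes, was at 1.16, 14.5 and 1.74 CPM in the 3-month mice, 1.38, 0.685 and 0.557 in the treated mice and 2.51, 1.98 and 1.92 in the natural aging mice. Single mice stood far above the others of their group in both genes, and the log2 fold change of Ccl2 in treated against 3-month ovaries was -2.76 with all mice and -0.75 without 3-month mouse 2. Cdkn1a, which encodes the cell cycle inhibitor p21, was at 12.8, 53.2 and 14.4 CPM in the 3-month mice and 38.6, 13.6 and 9.42 in the treated mice, with a high mouse in each group and a log2 fold change of -0.42 that became 0.57 without 3-month mouse 2.

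Cdkn2a, which encodes p16 and p19ARF, was low in all libraries, at 0.533, 2.29 and 0.511 CPM in the 3-month mice, 0.299, 0.369 and 0.861 in the treated mice and 2.61, 1.93 and 2.43 in the natural aging mice. The treated mice overlapped the 3-month mice (log2 fold change -1.10, interval -2.71 to 0.50) and lay below all natural aging 6-month mice (-2.16, interval -3.13 to -1.18, edgeR adjusted p = 0.13). Against 3 months the log2 fold change was -0.03 without 3-month mouse 2 and -1.72 without treated mouse 3. Its neighbour Cdkn2b, which encodes p15, was at 7.46, 31.2 and 6.48 CPM in the 3-month mice, 12.5, 4 and 2.84 in the treated mice and 51.5, 85.5 and 25.6 in the natural aging mice, again with overlap between treated and 3-month mice and the highest 3-month level in mouse 2. Lmnb1, the nuclear lamin whose loss marks senescence, was at 111, 88.9 and 113 CPM in the 3-month mice and 122, 118 and 74.1 in the treated mice (log2 fold change -0.02, interval -0.44 to 0.41). Among the SASP factors, 3 had a lower level in treated than in 3-month ovaries at an unadjusted p under 0.05, namely Ccl2, Ccl3 and Igfbp3, and 1, Kitl, a higher one. Kitl encodes the KIT ligand that granulosa cells present to oocytes and was at 96.4, 78 and 66.6 CPM in the 3-month mice and 95.8, 104 and 107 in the treated mice.

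The transcripts of the drug's targets had intervals within 2-fold of the 3-month level. Bcl2 was at 14, 18.6 and 17.5 CPM in the 3-month mice and 19.996, 17.2 and 13.6 in the treated mice. Bcl2l1, which encodes BCL-XL, was at 70.9, 62.6 and 73.2 CPM in the 3-month mice and 62.4, 78.3 and 57.3 in the treated mice. Bcl2l2, which encodes BCL-W, was at 71.1, 65.2 and 76.1 CPM in the 3-month mice and 74.1, 78.2 and 88.5 in the treated mice. Their log2 fold changes were -0.01 (interval -0.42 to 0.41), -0.09 (interval -0.40 to 0.22) and 0.16 (interval -0.10 to 0.42), and the groups overlapped for all 3. Of the exon bases of Bcl2l2, 13.3% overlap another gene model on the same strand. Mcl1, an anti-apoptotic relative that ABT263 binds poorly, had a log2 fold change of -0.02 (interval -0.24 to 0.20). Of the 7 anti-apoptotic members tested, 0 had an unadjusted p under 0.05, and the same held for the 10 pro-apoptotic members, whose median was -0.14. Bcl2l10, an oocyte member of the family, was at 31.7, 27.8 and 22.9 CPM in the 3-month mice, 22.7, 27.2 and 19.4 in the treated mice and 19.9, 15.8 and 14.1 in the natural aging mice.

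Further genes were named by the rank of their p in treated against 3-month ovaries, the 10 with the smallest p in each direction among those without overlap between the groups. Genes with a mean under 2 CPM in the higher group and Gm and Rik models were left out. They were selected for that difference, so their values are a description. With edgeR's default expression filter and all mice, 0 passed an adjusted p of 0.05, while 16 of these 20 were among the 24 called by DESeq2. The 10 in the higher direction were Cd163l1, Igha, Wnt2b, Pard3b, Fcgr2b, Fyco1, Jchain, Irs1, Ep300 and Nr3c2. Cd163l1 (ENSMUSG00000025461, chromosome 7 from 140218267 to 140231145), a scavenger receptor of some T cells and macrophages, was at 0.823, 0.585 and 0.664 CPM in the 3-month mice, 2.87, 2.69 and 4.21 in the treated mice and 1.97, 4.21 and 3.19 in the natural aging mice. All treated mice were above all 3-month mice, and the natural aging 6-month mice overlapped the treated ones. The log2 fold change was 2.20 (4.61-fold, SE 0.33, edgeR adjusted p = 0.62) in treated ovaries and 2.16 in natural aging, and the direct difference was 0.06.

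Igha (ENSMUSG00000095079, chromosome 12 from 113254830 to 113260236), the constant region of immunoglobulin A, was at 19.3, 5.38 and 8.02 CPM in the 3-month mice, 51.4, 53.6 and 69.6 in the treated mice and 3.06, 216 and 15.5 in the natural aging mice. The treated mice were alike and above the 3-month mice, while 1 natural aging mouse was above and 2 were below them. Jchain, which joins immunoglobulin A and M subunits in plasma cells, followed the same pattern at 5.72, 1.22 and 2.60 CPM in the 3-month mice, 14.5, 14.9 and 16.2 in the treated mice and 2.22, 49.7 and 4.15 in the natural aging mice. So did Igkc, the kappa light chain, at 20.8, 3.19 and 4.85 CPM in the 3-month mice, 41.3, 29.2 and 54 in the treated mice and 4.58, 117 and 26 in the natural aging mice. The log2 fold changes against 3 months were 2.39, 2.22 and 2.08 (edgeR adjusted p = 0.88 for all 3). Without 3-month mouse 1, which had the highest level of all 3 in its group, Igha and Igkc passed the threshold at log2 fold changes of 3.10 and 3.35 (edgeR adjusted p = 0.0108 and 0.0464) and Jchain did not at 2.96 (0.078). The B and plasma cell markers summed to 221, 251 and 171 CPM in the 3-month mice and 299.8, 269.8 and 318 CPM in the treated mice, with Xbp1 the most abundant, and 3 of 11 had an unadjusted p under 0.05. Immunoglobulin genes share sequence, and how the counting assigned reads between them is not given in the sources used here.

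Wnt2b, a secreted WNT ligand, was at 24.1, 18.8 and 25.7 CPM in the 3-month mice, 38.5, 43.8 and 39.5 in the treated mice and 38.6, 38.7 and 35.3 in the natural aging mice. Fcgr2b, the inhibitory receptor for immunoglobulin G, was at 31.9, 34.8 and 33.1 CPM in the 3-month mice, 59.5, 54 and 46 in the treated mice and 49.1, 46 and 57.3 in the natural aging mice. Both had all mice of both 6-month groups above all 3-month mice, with log2 fold changes of 0.81 and 0.65 in treated and 0.71 and 0.60 in natural aging ovaries. Irs1, the adaptor of the insulin receptor, was at 33.8, 26.1 and 24.1 CPM in the 3-month mice, 52.1, 46.5 and 44.1 in the treated mice and 52.1, 37 and 25 in the natural aging mice, although 30.9% of its exon bases overlap an antisense gene model. Nr3c2, the mineralocorticoid receptor, was at 5.33, 5.16 and 5.62 CPM in the 3-month mice, 10.4, 8.69 and 10.1 in the treated mice and 7.39, 8.38 and 7.54 in the natural aging mice, with the natural aging mice between the other groups. The rest of the 10 were Pard3b, a cell polarity gene (0.69), Fyco1, an adaptor that moves autophagosomes (0.54), and Ep300, a histone acetyltransferase (0.49), with log2 fold changes in brackets.

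**Figure D4:**
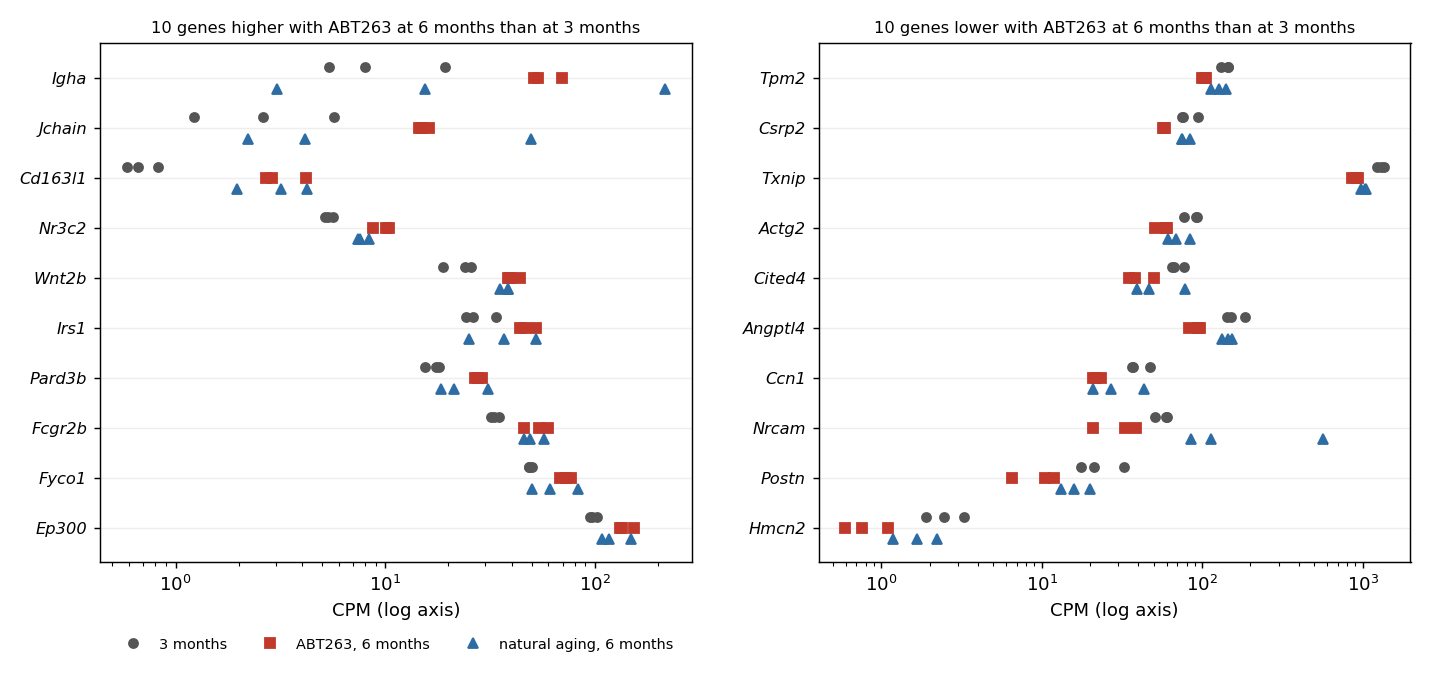
Level of the 20 genes named by rank in each mouse (x axis, CPM, log axis), with 3 points for each of the 3 groups. Treated and 3-month mice do not overlap for any of the 20 genes, which the rule required, and the natural aging 6-month mice lie with the treated mice for Cd163l1, Wnt2b and Fcgr2b but with the 3-month mice for Csrp2.

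The 10 genes in the lower direction were Ccn1, Angptl4, Actg2, Txnip, Cited4, Tpm2, Postn, Nrcam, Csrp2 and Hmcn2. Angptl4 (ENSMUSG00000002289, chromosome 17 from 33773750 to 33781830), a secreted inhibitor of lipoprotein lipase, was at 151, 185 and 143 CPM in the 3-month mice, 97.5, 94.8 and 83.2 in the treated mice and 154, 133 and 146 in the natural aging mice. All treated mice were below all mice of both other groups. The log2 fold change was -0.82 (SE 0.12, edgeR adjusted p = 0.62) against 3 months, -0.16 in natural aging and -0.65 (edgeR adjusted p = 0.0929) between the 6-month groups. Txnip, the inhibitor of thioredoxin that responds to glucose, was at 1231, 1306 and 1349.9 CPM in the 3-month mice, 935, 854 and 914 in the treated mice and 1055, 983 and 1037 in the natural aging mice, with the natural aging mice between the other groups, and 19.4% of its exon bases overlap an antisense gene. Nrcam, a neuronal adhesion molecule, was at 59.5, 59.98 and 50.6 CPM in the 3-month mice, 38.5, 33.2 and 21 in the treated mice and 85.7, 569 and 114 in the natural aging mice. Treated mice were below 3-month mice (log2 fold change -0.90) and the natural aging mice were above them (2.17), with 569 CPM in natural aging mouse 2.

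Contractile genes included Actg2, enteric smooth muscle actin, at 91.6, 77.1 and 93.2 CPM in the 3-month mice, 59.4, 50.8 and 60.7 in the treated mice and 61.2, 84.2 and 68.3 in the natural aging mice. Cnn1, calponin, was at 54.9, 34.5 and 51.7 CPM in the 3-month mice, 30.1, 28.4 and 27.9 in the treated mice and 36.1, 36.7 and 32.5 in the natural aging mice. Both were lower in all treated than in all 3-month mice. The log2 fold changes against 3 months were -0.64 and -0.73, and in natural aging -0.30 and -0.43. Des, which encodes desmin, was at 45.6, 27.2 and 54.1 CPM in the 3-month mice, 25.7, 23.9 and 18.7 in the treated mice and 28.8, 38.4 and 36.5 in the natural aging mice, where the 3-month mice ranged most widely and all treated mice were below them. Acta2, smooth muscle actin of vessels and theca, had a log2 fold change of -0.39, while Myh11, Mylk and Rgs5, further markers of muscle and pericytes, had -0.18, -0.08 and 0.03. The smooth muscle and pericyte list thus had 4 of 12 genes lower at an unadjusted p under 0.05 and a median of -0.19, against -0.16 in natural aging. That median was -0.10 without 3-month mouse 3 and -0.11 without treated mouse 3. Outside the list, Tpm2, a tropomyosin, had -0.46 and Csrp2, a muscle LIM protein, -0.52. Ccn1, a matricellular protein of mechanically loaded cells, was at 36.8, 47.6 and 36.9 CPM in the 3-month mice, 23.3, 21 and 21.7 in the treated mice and 20.8, 43.2 and 27.2 in the natural aging mice (log2 fold change -0.90, edgeR adjusted p = 0.62), and the natural aging mice spread over the range of both groups.

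Postn, which encodes the matrix protein periostin, was at 17.6, 32.7 and 21 CPM in the 3-month mice, 10.4, 12 and 6.48 in the treated mice and 20.1, 13.1 and 16 in the natural aging mice, with a log2 fold change of -1.33 (SE 0.28) in treated and -0.54 in natural aging ovaries. Lox, the enzyme that crosslinks collagen and elastin, was at 30.5, 51.9 and 32.8 CPM in the 3-month mice and 29.4, 15.8 and 19.3 in the treated mice. Dpt, dermatopontin of fibroblasts, was at 9.54, 6.65 and 12.7 CPM in the 3-month mice and 4.01, 5.37 and 3.24 in the treated mice, and neither gene overlapped between the groups. Of 30 matrix and remodelling genes, 25 were lower with treatment (median -0.23), 5 at an unadjusted p under 0.05. Here too 3-month mouse 2 stood high, at a list level of 0.32 against -0.27 and -0.05 in the other 3-month mice. Without it the median was -0.04, so the list's distance from 0 rested on that library, while Postn kept a log2 fold change of -1.02. The collagens had a median of -0.21 and 0 of 17 genes at an unadjusted p under 0.05. Their median was -0.35 without 3-month mouse 1, whose list level of -0.36 was below the 0.19 and 0.17 of the other 3-month mice. It was -0.05 without 3-month mouse 2 and -0.10 without treated mouse 3. The last genes of the 10 were Cited4, a transcriptional coactivator (-0.78), and Hmcn2, a hemicentin of basement membranes (-1.64), with log2 fold changes in brackets.

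The circadian clock is a feedback loop in which CLOCK, NPAS2 and BMAL1 drive E-box genes such as the Per and Cry repressors, and the PAR-bZIP factors DBP, TEF and HLF drive D-box genes. Of 16 members tested, 7 were higher and 1 lower at an unadjusted p under 0.05 in treated ovaries, beside 2.91% and 2.61% of all genes. Of the 16 members, 8 did not overlap between the groups, beside 11.8% of all genes. They were the 8 at that p, so both counts describe the same genes. With edgeR's default expression filter, 0 passed the adjustment over all genes. With no filter on low counts, edgeR called Per1, Per2, Per3, Tef and Npas2. That setting called 96 genes higher and 107 lower, so it was not particular to the clock. Among them were Akr1c18, Ccl2, Uchl1, Cdkn2b and Timp1, which varied widely among the 3-month mice. The time of day at which the ovaries were collected is not given in the sources used here, so its part in these values was not tested. Promoter stretches of 2 of these genes are shown to place the elements. They come from RefSeq on GRCm38.p6, end before the RefSeq gene start and are written 5′ to 3′ on the strand of the gene, with the motif in capitals, the D-box TTATGTAA for Per3 and the E-box CACGTG for Per1.
Per3, chr4:151044791-151044895, minus strand: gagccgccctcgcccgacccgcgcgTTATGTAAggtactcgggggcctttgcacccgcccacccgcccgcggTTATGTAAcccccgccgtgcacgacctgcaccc
Per1, chr11:69098758-69098813, plus strand: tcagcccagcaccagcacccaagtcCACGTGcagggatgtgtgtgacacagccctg
The capitals of Per3 begin 205 and end 151 bases before its start, and those of Per1 span bases 166 to 161 before its start. Promoter windows of 300 bases were at hand for 14 of the 16 genes, and a search of both strands found an E-box in 5 of them (35.7%), Tef, Per1, Cry1, Bhlhe41 and Ciart, against 8.09% of the promoters of 27025 genes and 11.1% of those of 12281 genes tested. A D-box was found in Per3 alone, against 1.11% of all and 0.757% of tested genes, and the letters TAGGTCA of the ROR element in Arntl alone, against 2.97% and 2.25%. These are matches of letters and not shown sites.

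Per3, whose promoter holds the 2 D-boxes above, was at 58.1, 39.3 and 66.9 CPM in the 3-month mice, 99.2, 88.2 and 90.03 in the treated mice and 79.3, 68.2 and 63.3 in the natural aging mice. Treated mice were above all mice of both other groups, with a log2 fold change of 0.73 (SE 0.18, interval 0.32 to 1.14) against 3 months and 0.39 against natural aging. Per1, with the E-box above, was at 58.2, 77.3 and 79.6 CPM in the 3-month mice, 94.2, 121 and 96.4 in the treated mice and 81.1, 116 and 96.8 in the natural aging mice. Per2, a further repressor of the loop, was at 21.9, 18.3 and 30.02 CPM in the 3-month mice, 47.7, 49.7 and 30.4 in the treated mice and 38.5, 27.6 and 38.2 in the natural aging mice. Their log2 fold changes were 0.51 and 0.84, without overlap between treated and 3-month mice, and 0.44 and 0.56 in natural aging. Among the PAR-bZIP factors, Tef was at 171, 143 and 174 CPM in the 3-month mice, 233, 229.5 and 229.6 in the treated mice and 216, 211 and 199 in the natural aging mice. Hlf was at 17.3, 18.3 and 16.7 CPM in the 3-month mice, 25.4, 24.6 and 21.6 in the treated mice and 22.4, 26.8 and 25 in the natural aging mice. Both 6-month groups were above the 3-month mice for these factors. Dbp was at 78.5, 74.1 and 176 CPM in the 3-month mice, 99, 90.3 and 119.6 in the treated mice and 94.6, 121 and 109.9 in the natural aging mice, with overlap between all groups and its highest level in 3-month mouse 3. Of its exon bases, 18% overlap an antisense gene.

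Npas2, the partner of BMAL1, was the member with the lower level, at 6.97, 4.90 and 7.86 CPM in the 3-month mice, 1.32, 3.11 and 3.09 in the treated mice and 2.32, 4.91 and 3.54 in the natural aging mice (log2 fold change -1.40 in treated and -0.88 in natural aging ovaries). Arntl, which encodes BMAL1, had -0.50 (-0.29 without 3-month mouse 2) and -0.58, with overlap between the groups. Nr1d2, a repressor also known as REV-ERB beta, was at 137, 112 and 113 CPM in the 3-month mice and 157, 142 and 154 in the treated mice. Cry2, the partner of the Per proteins, was at 52.9, 51.9 and 57.1 CPM in the 3-month mice and 62.6, 72.2 and 62.7 in the treated mice, and neither overlapped between the groups. Natural aging mice overlapped the 3-month mice for every member but Tef, Hlf, Per1 and Cry2. The list median was 0.24 with treatment (0.19 to 0.32 with each mouse left out in turn), 0.27 in natural aging and 0.01 between the 6-month groups.

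**Figure D5:**
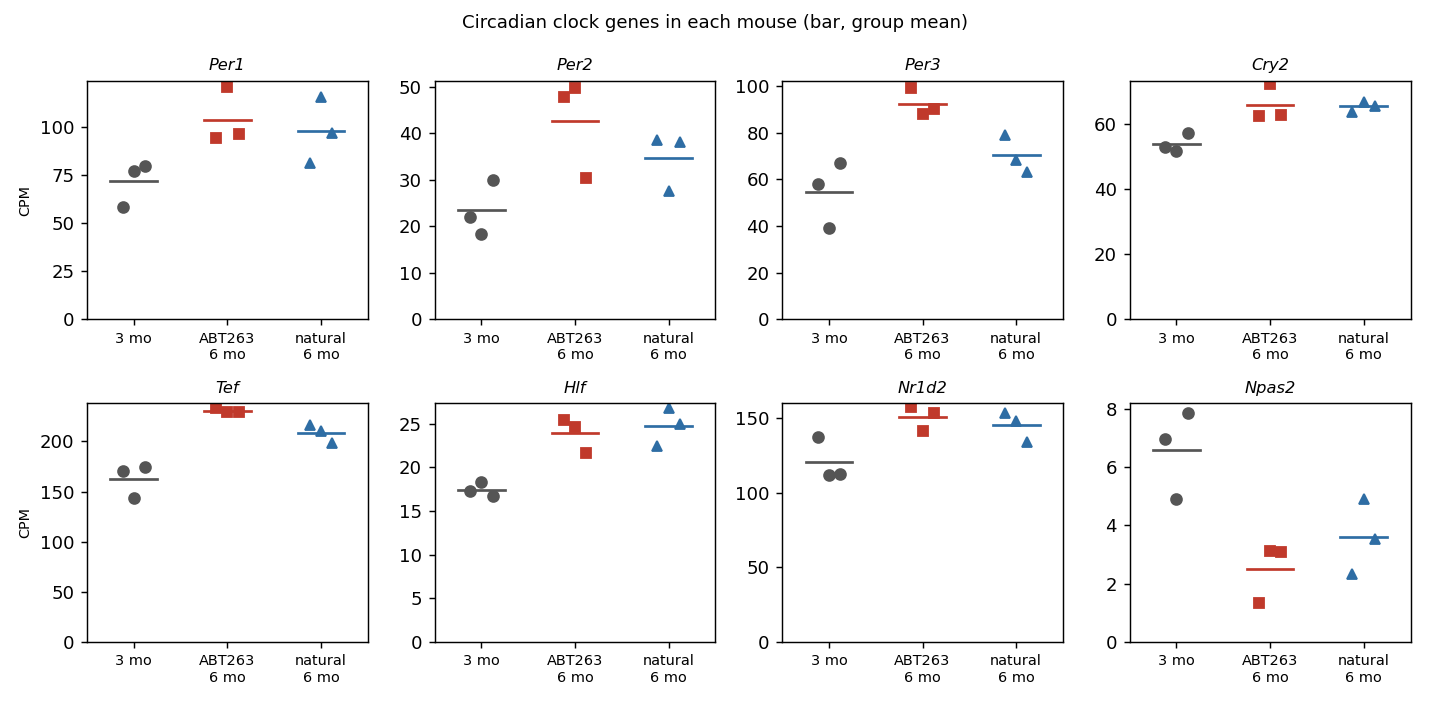
Level of 8 circadian clock genes in each mouse (y axis, CPM, from 0), with a bar for the mean of 3 mice in each of the 3 groups. For all 8 genes the treated mice lie apart from the 3-month mice, above them except for Npas2. These are the 8 of 16 members tested with an unadjusted p under 0.05, a choice that favours such separation.

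Several steroidogenic and luteal genes varied widely among the mice of a group. Akr1c18, the enzyme that breaks down progesterone when corpora lutea regress, was at 118, 165 and 8.07 CPM in the 3-month mice, 49.8, 2.69 and 7.50 in the treated mice and 606, 1284 and 115 in the natural aging mice. Treated mouse 1 and 3-month mice 1 and 2 were above the others of their groups, and the log2 fold change of -2.32 had an interval of -4.85 to 0.20 and was -4.25 without treated mouse 1. Cyp19a1, the aromatase of granulosa cells, was at 16.6, 47.5 and 6.69 CPM in the 3-month mice, 13.7, 18.4 and 24.3 in the treated mice and 51.5, 89.1 and 79.97 in the natural aging mice, with the treated mice inside the range of the 3-month mice and below all natural aging mice (log2 fold change -1.97, edgeR adjusted p = 0.0929). Star, the carrier of cholesterol into mitochondria, was at 1422, 369.6 and 1577 CPM in 3-month and 417, 1639 and 2486 CPM in treated mice. The stage of the estrous cycle is not given in the sources used here, and its part in these values was not tested. Sfrp4, a secreted WNT antagonist of luteal tissue, was the luteal gene with the smallest p, at 1904, 1409.8 and 1272 CPM in the 3-month mice, 977, 881 and 1098 in the treated mice and 2057, 4249 and 1843 in the natural aging mice (log2 fold change -0.66 in treated and 0.82 in natural aging ovaries). Fshr, the receptor for follicle-stimulating hormone, was at 29.2, 31.3 and 22.2 CPM in the 3-month mice and 23.2, 17.4 and 19.7 in the treated mice (log2 fold change -0.48). Inhbb, an inhibin and activin subunit, was at 597, 452 and 595 CPM in the 3-month mice and 739, 698 and 662 in the treated mice (log2 fold change 0.33, and 0.22 without 3-month mouse 2).

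Stress and immune lists had medians on both sides of 0. Heat shock genes had members in both directions and a median of -0.04, with 3 of 10 higher and 2 lower at an unadjusted p under 0.05. Hspa1b, an inducible HSP70, was at 17.7, 32.3 and 22.6 CPM in the 3-month mice and 38.1, 32.7 and 39.3 in the treated mice. Dnajb1, a cochaperone of HSP70, was at 52.5, 63.9 and 57.3 CPM in the 3-month mice and 76.3, 77.2 and 73.6 in the treated mice, and for both genes all treated mice were above all 3-month mice. Hspb1, a small heat shock protein also found in muscle, was at 57.3, 82.5 and 67.7 CPM in the 3-month mice and 41.9, 55.3 and 53.4 in the treated mice, below them. Interferon response genes were higher for 26 of 32 with a median of 0.11, and 3 had an unadjusted p under 0.05, the guanylate-binding proteins Gbp2 and Gbp5 and the antiviral Rsad2. That median was 0.30 without 3-month mouse 1 and also without treated mouse 1, and it lay between 0.02 and 0.07 without any one of the other 4 mice. Their list level overlapped widely, at 0.34, -0.10 and -0.23 in the 3-month mice and -0.12, 0.26 and 0.37 in the treated mice. T and NK cell genes were higher for 12 of 14 (median 0.28, and 0.14 without treated mouse 3) but low in level, and 0 had an unadjusted p under 0.05. Immediate early genes, which cells switch on within minutes of a stimulus, had a median of -0.21 that was 0.01 without 3-month mouse 2, whose list level was 0.39 against -0.23 and -0.16 in the other 3-month mice. Tnc, the matrix protein tenascin C and a SASP factor, was at 162, 464 and 161 CPM in the 3-month mice, 290.4, 178 and 128 in the treated mice and 846, 812 and 489 in the natural aging mice. The treated mice overlapped the 3-month mice and lay below all natural aging mice, with log2 fold changes of -0.43 (interval -1.40 to 0.55) and -1.85 (interval -2.51 to -1.19, edgeR adjusted p = 0.0929). The first of these was 0.28 without 3-month mouse 2.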

How the data were processed

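The authors deposited raw read counts per Ensembl gene for 24 whole-ovary mRNA libraries, which sum to 16361877 to 20231834 counts in the 9 libraries used here. The submitters' processing notes name STAR and mm10. The counting program, annotation release and strand setting are not given in the sources used here. Symbols and positions were taken from GENCODE M21 on GRCm38, which held 54495 of the 54532 gene identifiers, and promoter sequences from RefSeq.

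Treated 6-month and 3-month libraries were compared with edgeR 4.0.16 (quasi-likelihood test, TMM, default expression filter, Benjamini-Hochberg over all genes tested) in R 4.3.3, with only the 6 libraries of a comparison in the fit. Standard errors were derived from the F statistic, and intervals are 95%. DESeq2 1.42.0, RLE factors, other filters, a replicate block, larger fits, other distance settings and leaving out each library were alternatives. Exact permutation over 3 against 3 mice has 0.1 as its smallest p. The fitting procedure was tested on simulated data, and no value given here comes from that test.

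The genes named were, in each direction, the 10 with an adjusted p under 0.05, or failing that the smallest p, at a mean of at least 2 CPM in the higher group and without overlap, leaving out Gm and Rik models. The rule also took the 3 members of each of 36 lists with the smallest p and a set of fixed genes, of which the text gives only a part. Further genes in the text were chosen after their values were seen. The members and lists were chosen with earlier results of these data known.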

Additional observations from a re-analysis of the deposited data

How the results depend on the processing

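Counts of called genes depended on the test and the filter, and the cause was not tested. DESeq2 called 14 genes higher and 10 lower in treated against 3-month ovaries, 80 and 63 in natural aging at 6 against 3 months, and 143 and 243 in treated against natural aging ovaries at 6 months. With no filter on low counts, edgeR called 96 and 107, 248 and 208, and 389 and 482 in the same order, and at an unadjusted p under 0.05 stood 1020 higher and 824 lower, 1335 and 1305, and 1417 higher in the last. With all 24 libraries in 1 fit, 240, 455 and 389 genes were lower at an unadjusted p under 0.05 and 383 higher in the last comparison. Leaving out 1 mouse at a time gave 0 to 3 called higher and 0 to 1 lower in treated against 3-month ovaries, with 302 to 1017 and 217 to 803 at an unadjusted p under 0.05. For natural aging the ranges were 0 to 33, 0 to 43, 520 to 937 and 570 to 1093, and for the last comparison 0 to 99, 0 to 111, 579 to 1060 and 701 to 1164.

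Replicate numbers are shared by the groups, but the deviations of same-numbered treated and 3-month mice correlated at -0.26, -0.09 and 0.05, so the numbers were not taken as pairs. With a replicate block, 297 genes were lower at an unadjusted p under 0.05 in treated against 3-month ovaries and 0 were called, 1 was called higher in natural aging, and 1 higher and 7 lower in the last comparison.

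The difference in distance to the 3-month mice ran from -0.0644 to 0.0116 with 1 mouse left out. The log2 fold change of Bcl2 was 0.0051 with RLE, 0.0049 with DESeq2, 0.0091 with no filter, 0.013 with 24 libraries and 0.0064 with 9 libraries in 1 fit, and that of Lmnb1 was 0.00047 with 24 libraries. With 1 mouse left out, log2 fold changes in treated against 3-month ovaries that took the other sign in part ran for Dbp from -0.32 to 0.41, Amh from -0.27 to 0.12, Mki67 from -0.16 to 0.19, Lyz2 from -0.29 to 0.079, Timp1 from -1.39 to 0.15, Tnc from -0.79 to 0.28, Cdkn1a from -1.23 to 0.57, Lmnb1 from -0.13 to 0.19, Bcl2 from -0.13 to 0.14, Bcl2l1 from -0.22 to 0.015, Mcl1 from -0.058 to 0.030, Cyp19a1 from -0.78 to 0.68, Star from -0.14 to 0.87 and Ovgp1 from -2.30 to 0.61. The remaining genes recomputed under the alternatives kept their direction, while the medians of several lists took both signs with 1 mouse left out, among them those of luteal (-0.39 to 0.09) and erythrocyte genes (-1.64 to 0.62). At this depth and with 3 mice a group, differences under about 0.352 on the log2 scale were within the median interval.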

Other observations

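Some of the genes described above are given here in the ovaries of treated mice at 9 months and in older natural aging ovaries, as values with no test. Gdf9, the oocyte growth factor, was at 34.6, 20.4 and 47.8 CPM in natural aging and 37.1, 54.2 and 32.8 CPM in treated mice at 9 months, and at 2.55, 8.97 and 2.34 CPM at 25 months. The treated 9-month mice overlapped the natural aging mice of that age. Angptl4, low in every treated mouse at 6 months, was at 135, 186 and 155 CPM in treated mice at 9 months, above every treated 6-month mouse and around the 151, 185 and 143 CPM of the 3-month mice. Per3 was at 46.9, 60.4 and 45.4 CPM and Npas2 at 11.8, 4.73 and 13.1 CPM in the treated 9-month mice, the first below and the second above every treated mouse at 6 months. Cd163l1, the scavenger receptor, reached 45.4, 24.8 and 39.9 CPM and Wnt2b 89.9, 83.8 and 87.5 CPM at 25 months of natural aging, above all 9 of the 3-month and 6-month mice. Lyz2, the macrophage lysozyme, was at 425, 352 and 435 CPM in the treated 9-month mice, above every treated 6-month mouse. For Angptl4, Per3, Npas2 and Lyz2 the natural aging mice of 9 months are not set beside these values. Whether treated and natural aging mice of 9 months differ in these genes was not tested.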
